A study of Mus musculus with 9 samples.

Results

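Mouse embryonic stem cells lacking Taz were compared with control cells that still carried the gene. The comparison covered 11674 genes, those with a mean of at least 1 FPKM (fragments per kilobase, scaled by sequencing depth) over 9 libraries, of 38940 genes listed. Of these, 10078 lay outside chromosomes 6, 8, 14 and Y, and the 1596 on those 4 chromosomes were kept apart because chromosome-wide shifts were known from earlier results of these data. Each group was 3 RNA-seq libraries. Control cells were Yap fl/fl Taz fl/fl and Taz KO cells were Yap fl/fl Taz -/-, so Yap was floxed and not deleted in both. The other group, Yap/Taz double KO by its titles and descriptions although its genotype field repeats that of Taz KO, served for the estimate of spread and for values given side by side.

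Culture was the same for all groups: fibronectin-coated plates and the serum-free medium N2B27, to which 2i/Lif was added (PD0325901, a MEK inhibitor, at 0.4 µM, CHIR99021, a GSK3 inhibitor, at 3 µM, and the cytokine Lif at 4 ng/ml). Cre-ERT2, a Cre recombinase switched on by tamoxifen derivatives, was brought in under the CAG promoter by piggyBac transposition with a neomycin resistance gene, and was activated with 500 nM 4-OHT. Poly(A) RNA was selected from 1 µg of total RNA and sequenced as directional libraries. The 500 nM of 4-OHT is recorded alike for every sample, controls included. The labels do not say separately for the control cells whether they received it. How many clones each group holds and whether replicates were separate cultures is not said either. What the p-values measure is thus how far these libraries spread, which could be technical variation alone.

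TAZ, the product of Wwtr1, and its paralog YAP are the effectors of the Hippo pathway. When the Hippo kinases are quiet, TAZ and YAP enter the nucleus, bind TEAD transcription factors and switch on genes for secreted matricellular proteins, cytoskeletal regulators and inhibitors of the pathway itself. YAP and TAZ share many targets, and in embryonic stem cells Yap remains present when Taz alone is deleted.

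The deposited FPKM values resolved into 19139802 to 23992020 whole reads per library. Libraries numbered 2 stood apart from those numbered 1 and 3 within every group, and libraries with the same number deviated together, so results are also given with the replicate number as a block, a term that compares libraries of one number with each other. Stem cell identity was clear in all 6 libraries: Pou5f1 read 466, 421 and 479 FPKM in control and 459.6, 348 and 451 FPKM in Taz KO, and Sox2 read 231, 236 and 209 FPKM in control and 233, 227 and 217 FPKM in Taz KO. Nanog, on chromosome 6, read 268, 263 and 261 FPKM in control and 287, 241 and 309 FPKM in Taz KO. Of other cell types, Zscan4c (2-cell-like state) was listed at 0 in all 6 libraries, and Pax6 (neuroectoderm), Gata6 and Sox17 (primitive endoderm), Cdx2 (trophectoderm), Col1a1 and Col1a2 (fibroblasts) were each at or below 0.331 FPKM. Summed levels of the trophectoderm, mesoderm, neuroectoderm, 2-cell-like and fibroblast marker lists overlapped between the groups. Other defining markers were not near 0: Eomes, of trophectoderm and primitive streak, read 7.196, 6.71 and 6.14 FPKM in control and 9.56, 7.37 and 7.76 FPKM in Taz KO, higher in every Taz KO library but not called (0.28 ± 0.12 SE, limma adjusted p = 0.371, 0.0876 with the block). T, of primitive streak, read 5.63, 3.33 and 4.58 FPKM in control and 5.598, 1.28 and 7.31 FPKM in Taz KO, Thy1, of fibroblasts, 3.07, 3.33 and 1.75 FPKM in control and 3.01, 4.56 and 1.38 FPKM in Taz KO, Gata4, of primitive endoderm, 1.43, 2.103 and 1.68 FPKM in control and 1.57, 2.32 and 1.14 FPKM in Taz KO, and Sox1, of neuroectoderm, 0.712, 1.298 and 0.938 FPKM in control and 0.474, 0.855 and 0.417 FPKM in Taz KO. In these 4 the groups overlapped, and the part of such cells in the results below was not tested.

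The targeted gene did not differ beyond its spread at the level of the whole gene. Wwtr1 read 12.4, 12.7 and 11.1 FPKM in control and 11.6, 9.03 and 11.9 FPKM in Taz KO, and the groups overlapped (log2 difference -0.16 ± 0.11 SE, limma adjusted p = 0.684). The labels do not name the deleted exons, and a whole-gene value also counts reads of exons outside a deletion, so it does not check the genotype. Yap1, which encodes YAP and should be intact in both groups, read 18.1, 18.1 and 19.1 FPKM in control and 18.6, 17.9 and 18.5 FPKM in Taz KO (log2 difference -0.01 ± 0.07 SE, limma adjusted p = 0.992). In double KO it read 4.14, 3.98 and 4.62 FPKM.

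Outside chromosomes 6, 8, 14 and Y, few genes differed between Taz KO and control, and most of those were lower in Taz KO. By limma at an adjusted p under 0.05, the threshold behind "rose", "fell" and "called" here, 62 of 10078 genes fell (0.615%) and 18 rose (0.179%). Of the 80, 24 falls and 3 rises were of at least 2-fold on the log2(FPKM + 0.5) scale, and in mean FPKM 31 falls and 6 rises were. In all 80 the 3 Taz KO values lay beyond the 3 control values, a separation found in 1527 of the 10078 genes (15.2%). With the replicate block the same fit called 445 falls (4.42%) and 274 rises (2.72%), among them all 80. Without the 3 libraries numbered 2, an alternative added after seeing the data, it called 134 falls and 61 rises.

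Many calls were lost when 1 library was left out, in fits without the replicate block. Such a fit ignores the pairing by number and has fewer libraries for the estimate of spread. A lost call thus does not show that the call rested on the library left out. Of the 80, 10 were still called without control replicate 1, 19 without control replicate 2, 43 without control replicate 3, 41 without Taz KO replicate 1, 51 without Taz KO replicate 2 and 14 without Taz KO replicate 3. Leaving out double KO replicate 1, 2 or 3, which only enter through the estimate of spread, kept 46, 79 and 58 of them. The counts of falls and rises were 9 and 1 without control replicate 1, 13 and 6 without control replicate 2, and 12 and 2 without Taz KO replicate 3. They were 35 and 10 without control replicate 3, 33 and 12 without Taz KO replicate 1, and 36 and 10 without double KO replicate 1. For double KO replicate 2 they were 96 and 29. A set of 10 genes was called in all 9 of these fits, among them Id2, Accsl, Fstl1 and Slc15a2, and the number of the 9 fits that kept a call is given beside each called gene whose test is printed.

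**Figure D1:**
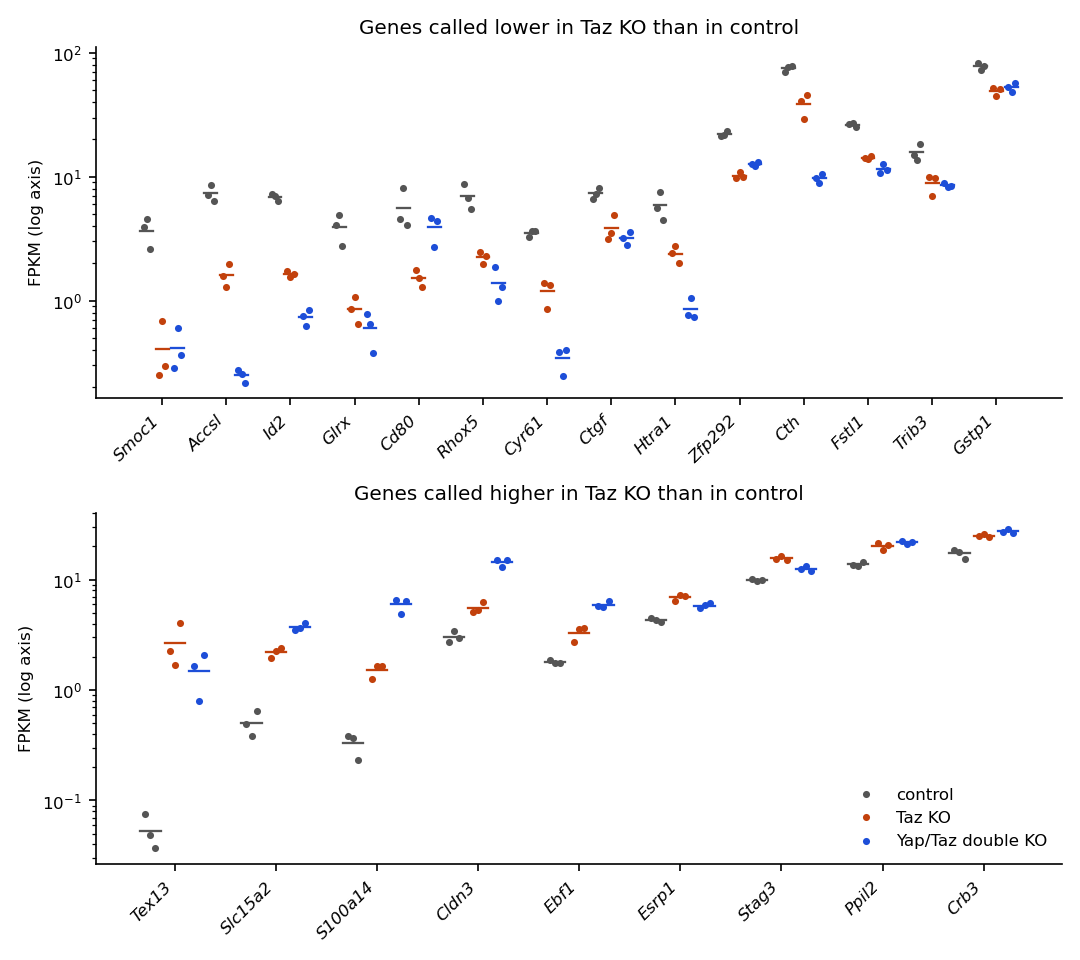
FPKM in each library (points) and group mean (lines) on log axes for genes called lower (upper panel) and higher (lower panel) in Taz KO than in control, with Yap/Taz double KO beside them. For each gene the 3 Taz KO points lie on one side of the 3 control points, from 0.0533 against 2.66 FPKM for Tex13 to 77.7 against 49.3 FPKM for Gstp1.

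Among known YAP/TAZ target genes, the 2 best-known secreted ones fell and the others did not pass the test. Cyr61 (Ccn1; chr3:145646971-145649985, GRCm38.p6) encodes a matricellular protein that binds integrins. It read 3.27, 3.65 and 3.63 FPKM in control and 1.38, 0.857 and 1.34 FPKM in Taz KO, so that every Taz KO library was below every control library. The log2 difference on the log2(FPKM + 0.5) scale was -1.26 ± 0.16 (SE; limma adjusted p = 0.012), and the call held in 6 of 9 fits without 1 library, with a limma adjusted p of up to 0.0809 without control replicate 1. Ctgf (Ccn2; chr10:24595442-24598683) encodes its close relative, also a matricellular protein. It read 6.596, 7.301 and 8.0999 FPKM in control and 3.14, 3.51 and 4.94 FPKM in Taz KO, again without overlap. Its difference was smaller, -0.86 ± 0.16 (SE; limma adjusted p = 0.0373), and the call held in 2 of 9 fits without 1 library, with a limma adjusted p of up to 0.149 without control replicate 2. TEAD factors bind the sequence GGAATG, and the 250 bases upstream of the Cyr61 start site hold it on the opposite strand, in capitals below. The 250 bases upstream of the RefSeq start site of Id2, 1 of the called genes with the smallest adjusted p, are shown beside it because they have no match. The GENCODE model of Id2 starts further upstream, so this window lies inside that longer gene model.
Cyr61, chr3:145649986-145650235, minus strand: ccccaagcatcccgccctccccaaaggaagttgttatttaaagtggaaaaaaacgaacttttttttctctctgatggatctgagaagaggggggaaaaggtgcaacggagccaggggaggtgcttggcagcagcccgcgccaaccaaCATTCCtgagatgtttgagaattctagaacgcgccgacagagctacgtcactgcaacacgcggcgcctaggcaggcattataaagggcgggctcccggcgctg
Id2, chr12:25096093-25096342, minus strand: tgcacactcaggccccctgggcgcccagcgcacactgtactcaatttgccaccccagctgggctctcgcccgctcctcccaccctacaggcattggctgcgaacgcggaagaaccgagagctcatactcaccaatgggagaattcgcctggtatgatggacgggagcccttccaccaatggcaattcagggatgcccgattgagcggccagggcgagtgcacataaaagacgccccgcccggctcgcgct
Both sequences are from RefSeq (GRCm38.p6). The Cyr61 match starts 103 bases before the start site.

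Over 300 bases around the start site (250 before and 50 after), GGAATG on either strand was found in 10 of the 44 called falls with a RefSeq promoter (22.7%), among them Mme, Accsl and Klhl3, and in 3 of 13 called rises (23.1%). It was found in 13.98% of the 7724 promoters of tested genes outside the 4 chromosomes and in 14.7% of all 32851 promoters. The motif TGATGNAAT, bound by the stress factor ATF4 with C/EBP partners, was in 0 of 44 and 0 of 13. It was in 0.466% of the tested promoters and 0.965% of all promoters, shares so low that its absence from so few promoters says little. These matches describe letters in a window and are not sites shown to be bound.

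The YAP/TAZ target list had 18 tested members outside the 4 chromosomes, of which 2 fell and 12 were below 0. Over all genes outside, 0.615% fell. By limma 0 rose, 0 were higher at an unadjusted p under 0.05 and voom called 0 higher. Its median log2 difference was -0.13, beside -0.013 over all 10078 genes outside and 0.0057 over all 11674 tested. With the block 4 members were lower, beside 4.42% of all genes outside. The 2 added ones both encode inhibitors that hold YAP or TAZ back. Amotl2, an angiomotin that tethers YAP and TAZ at junctions, read 20.1, 24.7 and 19.8 FPKM in control and 12.4, 14.8 and 13.05 FPKM in Taz KO, a difference of -0.66 ± 0.23 (SE; limma adjusted p = 0.253, 0.0222 with the replicate block). Ptpn14, a phosphatase that binds YAP, read 4.34, 6.55 and 3.92 FPKM in control and 2.66, 3.26 and 2.75 FPKM in Taz KO, a difference of -0.65 ± 0.18 (SE; limma adjusted p = 0.126, 0.0375 with the replicate block). The most highly expressed members stayed close to 0: Birc5, an inhibitor of apoptosis, differed by 0.01, and Tead1, the DNA-binding partner itself, by -0.08.

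The Hippo pathway list, from upstream scaffolds and kinases to TEAD factors, had no called member among 22 outside the 4 chromosomes, with 5 at an unadjusted limma p under 0.05 and 1 called by voom. How many of all genes outside pass that unadjusted threshold was not counted, so the 5 have no background beside them. The list median was -0.02. The block called Tead2 and Limd1 higher and Wwc1, Amotl2 and Ptpn14 lower, beside 2.72% and 4.42% of all genes outside. Tead2, the most abundant TEAD gene here, read 26.96, 25.1 and 27.9 FPKM in control and 33.4, 32.04 and 32.5 FPKM in Taz KO (0.29 ± 0.07 SE, limma adjusted p = 0.0759, 0.00999 with the block). Wwc1 (Kibra), an activator of the kinases, read 14.9, 13.8 and 14.9 FPKM in control and 11.1, 10.2 and 11.8 FPKM in Taz KO (-0.39 ± 0.08 SE, limma adjusted p = 0.0528, 0.00507 with the block). Limd1, an adaptor that restrains the LATS kinases, read 4.08, 4.34 and 3.86 FPKM in control and 5.54, 5.801 and 5.66 FPKM in Taz KO (0.43 ± 0.09 SE, limma adjusted p = 0.0615, 0.0115 with the block).

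The deepest falls among protein-coding genes outside the 4 chromosomes were those of Smoc1, Accsl, Id2 and Glrx. Smoc1 (chr12:81026808-81186414), a secreted calcium-binding protein of basement membranes that modulates BMP signalling, read 3.91, 4.52 and 2.61 FPKM in control and 0.249, 0.684 and 0.296 FPKM in Taz KO. The Taz KO mean was 11.1% of control, and no values overlapped. The difference was -2.20 ± 0.25 (SE; limma adjusted p = 0.00962), and the call held in 6 of 9 fits without 1 library, with a limma adjusted p of up to 0.0742 without control replicate 1.

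Id2 (chr12:25093799-25097140), a dominant-negative inhibitor of basic helix-loop-helix factors and a classical BMP target, read 7.23, 7.03 and 6.41 FPKM in control and 1.73, 1.54 and 1.63 FPKM in Taz KO. The libraries of each group were close together and far from the other group. Id2 fell by 1.79 ± 0.11 (SE; limma adjusted p = 0.000568), and the call held in 9 of 9 fits without 1 library, with a limma adjusted p of up to 0.0077 without Taz KO replicate 1. The other Id genes were not called: Id1 differed by 0.36, Id3 by 0.49 and Id4 by -0.15. Of 10 tested BMP and Id genes outside the 4 chromosomes 1 fell, beside 0.615% of all genes outside, and the list median was -0.11. Bambi, a decoy receptor, passed with the block only (-0.34 ± 0.10 SE, limma adjusted p = 0.152, 0.0388 with the block).

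Accsl (chr2:93855361-93869157), named for its similarity to the ACC synthases, read 7.05, 8.62 and 6.36 FPKM in control and 1.57, 1.29 and 1.96 FPKM in Taz KO, a fall to 21.9% of control that held in 9 of 9 fits without 1 library, with a limma adjusted p of up to 0.0264 without control replicate 1 (-1.90 ± 0.15 SE, limma adjusted p = 0.00224). Glrx (glutaredoxin), which reduces glutathionylated proteins, read 4.08, 4.93 and 2.76 FPKM in control and 0.851, 1.07 and 0.647 FPKM in Taz KO. Control replicate 3 was the lowest control library and still more than 2-fold above every Taz KO library. The difference was -1.69 ± 0.23 (SE; limma adjusted p = 0.0134), and it held in 6 of 9 fits without 1 library, with a limma adjusted p of up to 0.0858 without control replicate 1.

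Cd80, a T cell costimulatory ligand, read 4.59, 8.14 and 4.06 FPKM in control and 1.78, 1.53 and 1.28 FPKM in Taz KO, with control replicate 2 far above the other controls. Cd80 fell by 1.53 ± 0.26 (SE; limma adjusted p = 0.0282), a call that held in 2 of 9 fits without 1 library, with a limma adjusted p of up to 0.128 without Taz KO replicate 3. Without the block it was the only called one of 10 immune ligand and receptor genes outside the 4 chromosomes, and with the block Cd24a was also higher and Cd81 lower. Over all genes outside, 0.615% fell without the block, and with it 4.42% fell and 2.72% rose. Mep1b, a membrane metalloprotease subunit, read 4.18, 4.14 and 2.501 FPKM in control and 1.08, 0.913 and 0.809 FPKM in Taz KO (-1.49 ± 0.25 SE, limma adjusted p = 0.0288, kept in 3 of 9 fits). Pnma5, a paraneoplastic antigen gene related to retroviral Gag, read 2.48, 2.89 and 2.21 FPKM in control and 0.762, 0.766 and 0.627 FPKM in Taz KO (-1.31 ± 0.16 SE, limma adjusted p = 0.0118, kept in 6 of 9 fits). Gm14074, a long non-coding RNA, had the largest fall outside the 4 chromosomes: it read 12.1, 10.95 and 10.999 FPKM in control and 1.11, 2.74 and 1.72 FPKM in Taz KO (-2.39 ± 0.22 SE, limma adjusted p = 0.00393, kept in 9 of 9 fits).

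Counting only members outside the 4 chromosomes, secreted proteases and matrix proteins had the lowest median of the 34 gene lists. Of 9 tested serine protease and secreted matrix genes outside the 4 chromosomes, 3 fell (Smoc1, Htra1 and Fstl1) and 7 were below 0. Over all genes outside, 0.615% fell. The median was -0.41, close to the -0.40 of the stress response list. By library the median was -0.49, -0.39 and -0.48 in Taz KO and -0.04, 0.11 and -0.06 in control. With the 5 tested members on the 4 chromosomes counted too, the median was -0.14. Counted likewise it was -0.34 for the stress response list and -0.23 for the p53 target and primitive endoderm lists. Htra1, a secreted serine protease that cleaves matrix and TGF-beta proteins, read 5.58, 7.52 and 4.51 FPKM in control and 2.42, 2.73 and 2.003 FPKM in Taz KO (-1.12 ± 0.19 SE, limma adjusted p = 0.0258), and the call held in 4 of 9 fits without 1 library, with a limma adjusted p of up to 0.125 without control replicate 1. Fstl1, a secreted glycoprotein of the follistatin family, read 26.5, 27.2 and 25.1 FPKM in control and 14.1, 14.005 and 14.6 FPKM in Taz KO, a fall to 54.3% with -0.86 ± 0.08 (SE; limma adjusted p = 0.00393) that held in 9 of 9 fits without 1 library, with a limma adjusted p of up to 0.0352 without control replicate 1. The most abundant members, Spp1 (osteopontin) at -0.41 and Sparc at -0.30, were not called. Fbln1, a fibulin, passed with the block only (-0.35 ± 0.10 SE, limma adjusted p = 0.152, 0.0087 with the block). Cpe, a carboxypeptidase gene of the list on chromosome 8, rose and is described with that chromosome.

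Sparc is also one of the primitive endoderm markers. These 15 markers summed to 324 to 369 FPKM in control and 287 to 294 FPKM in Taz KO, without overlap. Of them 8 were under 1 FPKM in all 6 libraries, and Gata6 and Sox17 were near 0 as given above. Their part in the secreted protein result was not tested, and in bulk libraries fewer cells of a type and less RNA per cell cannot be told apart. Lamb1, the laminin beta-1 chain of basement membranes, was the only called one of the 4 tested members outside the 4 chromosomes, where 0.615% of all genes fell. It read 13.05, 15.1 and 11.9 FPKM in control and 8.87, 9.03 and 7.86 FPKM in Taz KO (-0.61 ± 0.10 SE, limma adjusted p = 0.0287), and the call held in 3 of 9 fits without 1 library, with a limma adjusted p of up to 0.133 without Taz KO replicate 3. Lama1, the laminin alpha-1 chain, lay on the other side of 0 at 0.39 ± 0.14 (SE; limma adjusted p = 0.255, 0.0457 with the replicate block).

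Genes of the integrated stress response, which ATF4 activates when amino acids run short or proteins misfold, lay mostly below 0 in Taz KO. Of 17 tested members outside the 4 chromosomes 16 were below 0 and the median was -0.40. Medians by library were -0.40, -0.49 and -0.40 in Taz KO and -0.02, -0.01 and 0.05 in control. Without the block 2 members fell, beside 0.615% of all genes outside, and with it 12, beside 4.42%.

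Cth, the enzyme that makes cysteine by transsulfuration, read 70.05, 77.3 and 78.6 FPKM in control and 40.9, 28.9 and 45.9 FPKM in Taz KO. Taz KO replicate 2 was the lowest, and the groups were apart by 70.05 against 45.9 FPKM at their nearest values. The difference was -0.98 ± 0.15 (SE; limma adjusted p = 0.0226), and the call held in 4 of 9 fits without 1 library, with a limma adjusted p of up to 0.105 without control replicate 2. Trib3, a pseudokinase that feeds back on ATF4, read 15.1, 13.7 and 18.3 FPKM in control and 9.93, 7.02 and 9.704 FPKM in Taz KO (-0.79 ± 0.14 SE, limma adjusted p = 0.0373), and the call held in 1 of 9 fits without 1 library, with a limma adjusted p of up to 0.16 without control replicate 1. Pck2, the mitochondrial phosphoenolpyruvate carboxykinase and a known ATF4 target that was not on the list, read 25.4, 28.2 and 26.3 FPKM in control and 15.6, 14.1 and 14.8 FPKM in Taz KO (-0.83 ± 0.13 SE, limma adjusted p = 0.0214, kept in 2 of 9 fits). It was the only gene of chromosomes 6, 8 and 14 that fell without the block.

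Members that passed with the block only included Atf4 itself, which read 176, 165 and 195 FPKM in control and 153, 129.8 and 172 FPKM in Taz KO (-0.25 ± 0.11 SE, limma adjusted p = 0.402, 0.0389 with the block). Chac1, which degrades glutathione, had the largest difference of the list: it read 5.46, 6.01 and 7.33 FPKM in control and 2.797, 2.55 and 1.86 FPKM in Taz KO (-1.23 ± 0.26 SE, limma adjusted p = 0.0615, 0.0138 with the block). Ddit4, an inhibitor of mTORC1, read 92.2, 81.9 and 43.7 FPKM in control and 45.03, 49.2 and 19.9 FPKM in Taz KO, where both groups had their lowest value in replicate 3 (-0.96 ± 0.46 SE, limma adjusted p = 0.457, 0.0465 with the block). The serine synthesis enzymes Psat1 (-0.35 ± 0.13 SE, limma adjusted p = 0.255, 0.0264 with the block), Phgdh (-0.40 ± 0.15 SE, limma adjusted p = 0.297, 0.0333 with the block) and Psph (-0.50 ± 0.15 SE, limma adjusted p = 0.156, 0.0253 with the block) were also lower in Taz KO with the block. Of members on the shifted chromosomes, Asns (chromosome 6), asparagine synthetase, differed by -0.09, beside a median of 0.21 for all tested genes of that chromosome. The amino acid transporter gene Slc7a5 (chromosome 8) differed by 0.25 (limma adjusted p = 0.142, 0.0215 with the block), beside a chromosome median of 0.35. Both thus lay below the median of their chromosome.

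Cth is shared with the glutathione and redox list, in which 3 of 21 tested members outside the 4 chromosomes fell (Glrx, Cth and Gstp1). Over all genes outside 0.615% fell, and the list median was -0.12. Gstp1, a pi-class glutathione transferase, read 82.7, 72.3 and 78.01 FPKM in control and 52.3, 45.1 and 50.6 FPKM in Taz KO (-0.65 ± 0.09 SE, limma adjusted p = 0.0148), and the call held in 5 of 9 fits without 1 library, with a limma adjusted p of up to 0.089 without control replicate 1. Its neighbour and near-identical copy Gstp2 read 75.6, 75.6 and 71.7 FPKM in control and 44.3, 52.1 and 49.1 FPKM in Taz KO (-0.61 ± 0.08 SE, limma adjusted p = 0.012, kept in 6 of 9 fits), and reads of the pair may be split between them. Gstm2, a mu-class transferase, read 19.96, 22.5 and 20.8 FPKM in control and 15.8, 15.4 and 16.9 FPKM in Taz KO (-0.39 ± 0.07 SE, limma adjusted p = 0.0473, kept in 1 of 9 fits). Gstp2 and Gstm2 were not on the list and were named after their values were seen. The most abundant members Gpx1, Txn1, Gsta4 and Prdx1 differed by -0.01, 0.06, -0.10 and -0.07, and none was called.

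The p53 target list had a low median without a called member. Of 21 members outside the 4 chromosomes 20 were below 0 and the median was -0.26. None was called by limma or voom, and 9 had an unadjusted limma p under 0.05. The share of all genes outside at that unadjusted threshold was not counted. With the block 4 were lower, beside 4.42% of all genes outside. Plk2, a stress-induced polo-like kinase, read 9.88, 14.6 and 10.95 FPKM in control and 5.05, 5.23 and 5.13 FPKM in Taz KO (-1.11 ± 0.24 SE, limma adjusted p = 0.0701, 0.0224 with the block). Btg2, an antiproliferative factor, read 30.8, 39.2 and 26.02 FPKM in control and 23.3, 21.05 and 17.8 FPKM in Taz KO (-0.61 ± 0.16 SE, limma adjusted p = 0.121, 0.0281 with the block). Cdkn1a, the CDK inhibitor p21, differed by -0.18, and Trp53 by -0.03.

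Epithelial junction genes lay mostly above 0 in Taz KO. Of 21 tested epithelial junction genes outside the 4 chromosomes 2 rose, beside 0.179% of all genes outside. Of the 21, 17 were above 0 and the median was 0.27. With the block 9 were higher and 1 lower, beside 2.72% and 4.42% of all genes outside. Cldn3, a tight junction claudin, read 2.72, 3.39 and 2.98 FPKM in control and 5.11, 5.34 and 6.29 FPKM in Taz KO. The groups did not overlap, and the difference was 0.78 ± 0.11 (SE; limma adjusted p = 0.0134), a call that held in 7 of 9 fits without 1 library, with a limma adjusted p of up to 0.0809 without control replicate 1. Crb3, the Crumbs polarity protein of apical membranes, read 18.5, 17.97 and 15.5 FPKM in control and 24.7, 25.8 and 24.1 FPKM in Taz KO (0.51 ± 0.08 SE, limma adjusted p = 0.0241), and the call held in 2 of 9 fits without 1 library, with a limma adjusted p of up to 0.0905 without Taz KO replicate 1.

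Among members called with the block only, Cldn7 read 16.5, 16.9 and 13.96 FPKM in control and 23.9, 27.96 and 23.3 FPKM in Taz KO (0.65 ± 0.15 SE, limma adjusted p = 0.074, 0.00352 with the block), and the desmosomal cadherin gene Dsg2 read 5.85, 6.14 and 7.26 FPKM in control and 7.95, 8.84 and 9.305 FPKM in Taz KO (0.41 ± 0.09 SE, limma adjusted p = 0.0768, 0.00751 with the block). Epcam, an abundant epithelial adhesion molecule, read 71.1, 66.8 and 65.1 FPKM in control and 81.9, 84.9 and 77.9 FPKM in Taz KO (0.27 ± 0.08 SE, limma adjusted p = 0.177, 0.027 with the block). Bcam, a laminin receptor, was the exception: it read 65.2, 73.8 and 59.7 FPKM in control and 48.1, 44.2 and 48.98 FPKM in Taz KO (-0.48 ± 0.16 SE, limma adjusted p = 0.207, 0.0486 with the block). Catenins were near 0, with Ctnnb1 at -0.0027 and Ctnna1 at 0.05. Cdh1 (E-cadherin) lies on chromosome 8 and differed by 0.35 ± 0.08 (SE; limma adjusted p = 0.0742, 0.00507 with the replicate block), beside a median of 0.35 for all tested genes of that chromosome. Esrp1, a splicing factor of epithelial cells that was on no list, read 4.49, 4.28 and 4.17 FPKM in control and 6.44, 7.26 and 7.14 FPKM in Taz KO (0.63 ± 0.08 SE, limma adjusted p = 0.0112, kept in 6 of 9 fits), and Ap1m2, an epithelial adaptor subunit that sorts proteins to the basolateral membrane, read 31.5, 30.6 and 30.8 FPKM in control and 43.001, 39.1 and 47.02 FPKM in Taz KO (0.46 ± 0.09 SE, limma adjusted p = 0.0422, kept in 2 of 9 fits).

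All 7 tested S100 genes, which encode small calcium-binding proteins, were above 0, with a median of 0.49, and 1 of them rose. Over all genes outside, 0.179% rose. By library the median was 0.39, 0.76 and 0.27 in Taz KO and -0.07, 0.07 and 0.05 in control. S100a14 read 0.382, 0.37 and 0.235 FPKM in control and 1.25, 1.66 and 1.64 FPKM in Taz KO, from 5 to 10 recovered reads per control library and 30 to 42 per Taz KO library. The difference was 1.28 ± 0.15 (SE; limma adjusted p = 0.0111), and the call held in 7 of 9 fits without 1 library, with a limma adjusted p of up to 0.0604 without control replicate 1. S100a6 (0.51 ± 0.15 SE, limma adjusted p = 0.151, 0.0406 with the block) and S100a10 (0.30 ± 0.23 SE, limma adjusted p = 0.741, 0.0439 with the block) passed with the block only.

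Slc15a2, a proton-coupled peptide transporter, read 0.49, 0.386 and 0.644 FPKM in control and 1.94, 2.26 and 2.38 FPKM in Taz KO and was 4.33-fold higher in Taz KO. It rose by 1.42 ± 0.13 (SE; limma adjusted p = 0.00393), and the call held in 9 of 9 fits without 1 library, with a limma adjusted p of up to 0.0352 without control replicate 1. Tex13, a testis-expressed gene on the X chromosome, read 0.0749, 0.0483 and 0.0368 FPKM in control and 2.26, 1.69 and 4.04 FPKM in Taz KO. The control values stand for 5, 3 and 2 recovered reads and the Taz KO values for 138, 109 and 208. Tex13 was thus almost silent in control, and its log2 difference of 2.45 ± 0.32 (SE; limma adjusted p = 0.012) depends on the pseudocount, being 4.09 with 0.1 and 1.75 with 1 in place of 0.5. The call held in 6 of 9 fits without 1 library, with a limma adjusted p of up to 0.0809 without control replicate 1. Ebf1, a transcription factor of B cell and mesenchymal development, read 1.85, 1.76 and 1.77 FPKM in control and 2.74, 3.56 and 3.62 FPKM in Taz KO (0.72 ± 0.11 SE, limma adjusted p = 0.0201, kept in 3 of 9 fits), and Stag3, a meiotic cohesin subunit, read 10.1, 9.77 and 10.02 FPKM in control and 15.4, 16.5 and 14.98 FPKM in Taz KO (0.62 ± 0.07 SE, limma adjusted p = 0.00918, kept in 8 of 9 fits).

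Germline genes gave 1 call in each direction and imprinted genes 2 falls. Of 9 germline genes outside the 4 chromosomes Tex13 rose and Rhox5 fell, beside 0.179% and 0.615% of all genes outside. Rhox5, an X-linked homeobox gene, read 8.68, 6.76 and 5.46 FPKM in control and 2.49, 1.96 and 2.31 FPKM in Taz KO (-1.42 ± 0.20 SE, limma adjusted p = 0.0148), and the call held in 6 of 9 fits without 1 library, with a limma adjusted p of up to 0.083 without control replicate 1. Of 16 imprinted genes outside the 4 chromosomes 2 fell, beside 0.615% of all genes outside, and the list median was -0.15. Ascl2, a basic helix-loop-helix factor of trophoblast, read 9.08, 8.03 and 6.71 FPKM in control and 4.29, 4.15 and 3.17 FPKM in Taz KO (-0.95 ± 0.18 SE, limma adjusted p = 0.0463), and the call held in 1 of 9 fits without 1 library, with a limma adjusted p of up to 0.204 without control replicate 1. Zrsr1, a splicing factor retrogene, read 4.89, 5.15 and 4.62 FPKM in control and 3.29, 3.01 and 3.49 FPKM in Taz KO (-0.52 ± 0.09 SE, limma adjusted p = 0.0312), and the call held in 1 of 9 fits without 1 library, with a limma adjusted p of up to 0.164 without control replicate 1. With the block Grb10 (-0.74 ± 0.15 SE, limma adjusted p = 0.053, 0.00688 with the block) and H19 (-1.10 ± 0.30 SE, limma adjusted p = 0.128, 0.00368 with the block) were also lower. Without the block Ascl2 was likewise the only called one of 8 trophectoderm genes outside the 4 chromosomes, where 0.615% of all genes fell.

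**Figure D2:**
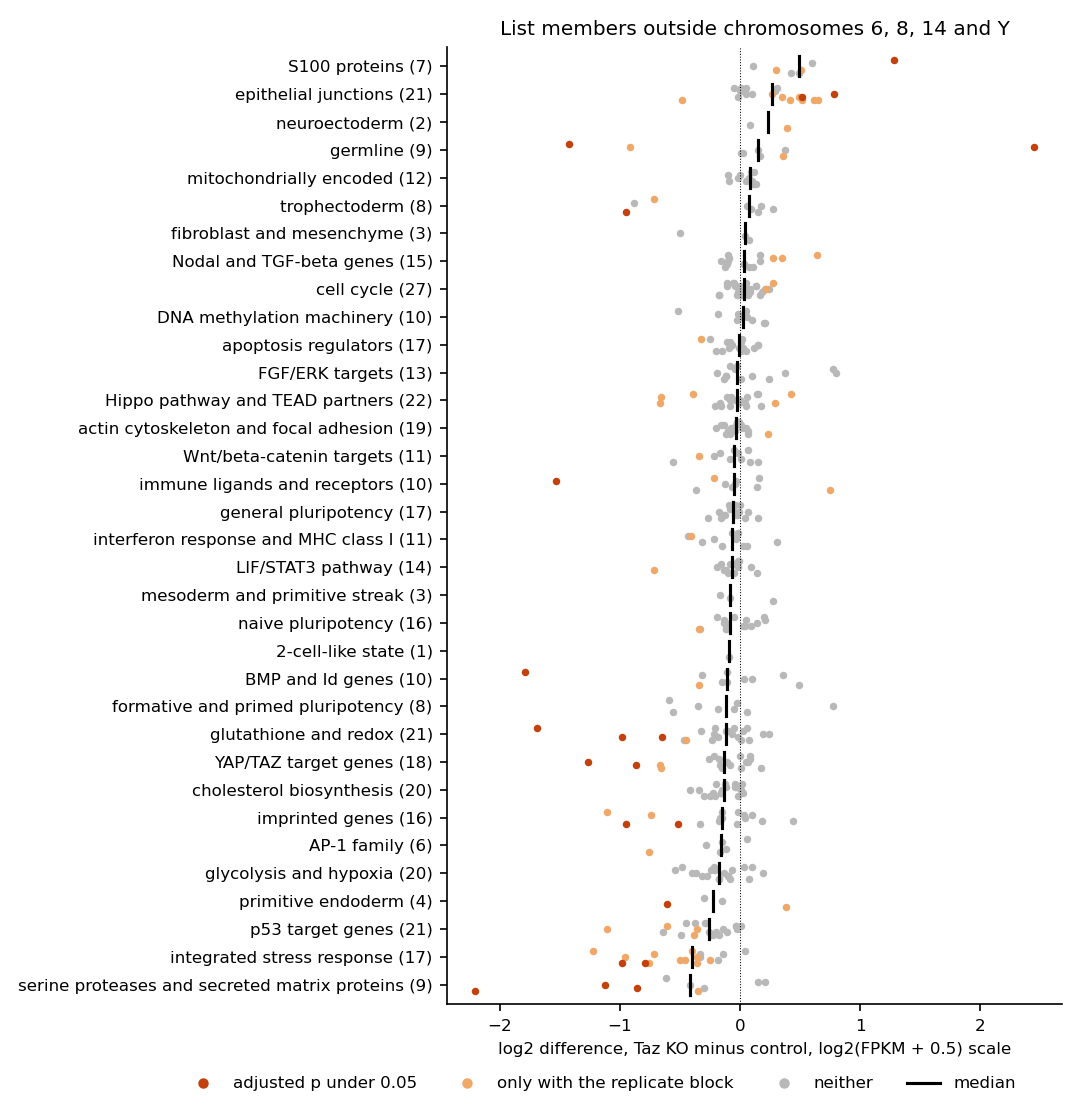
Log2 difference (Taz KO minus control) of each tested list member outside chromosomes 6, 8, 14 and Y (points), with the list median (bar) and the number of members in parentheses. Medians run from -0.41 for secreted proteases and matrix proteins to 0.49 for S100 proteins, and 12 of 34 lists hold a member called without the block.

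With the Hippo and p53 lists, 22 of 34 lists held no call. In these, with 288 tested members outside the 4 chromosomes, limma called 0 members and voom 1, while 30 had an unadjusted limma p under 0.05. That unadjusted count has no share of all genes outside beside it. With the block 9 were higher and 13 lower, 3.12% and 4.51% of the pooled members beside 2.72% and 4.42% of all genes outside. The pooled share was thus about that of all genes, but single lists differed from it. With the block 4 of 21 p53 targets were lower and 0 higher. Of 15 Nodal and TGF-beta genes 3 were higher and 0 lower, and of 22 Hippo genes 2 were higher and 3 lower. The medians of these lists lay between -0.26 and 0.24. Naive pluripotency genes were among them: of 16 outside the 4 chromosomes, Klf4, Tfcp2l1 and Esrrb differed by -0.12, -0.05 and 0.04, and 1 was lower with the block, for a median of -0.08. Dppa5a, the most abundant of them, differed by -0.34 ± 0.09 (SE; limma adjusted p = 0.14, 0.0345 with the replicate block). General pluripotency, cell cycle, cholesterol biosynthesis, glycolysis and actin cytoskeleton genes had medians of -0.06, 0.03, -0.13, -0.17 and -0.04.

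The other list members outside the 4 chromosomes that only the block called are given here with the log2 difference, the limma adjusted p without the block and that with it, in this order. In the stress response list they were Ddit3 (-0.46, 0.216 and 0.0293), Atf3 (-0.75, 0.161 and 0.0251), Cebpb (-0.71, 0.306 and 0.0168) and Sesn2 (-0.36, 0.265 and 0.0485), all transcription factors but Sesn2, a sestrin that p53 also induces. In the p53 list the other one was Aen (-0.39, 0.148 and 0.0346), a nuclease. The epithelial genes were Ocln (0.35, 0.179 and 0.0423), Tjp3 (0.52, 0.273 and 0.0119), Marveld2 (0.62, 0.143 and 0.0402) and Dsp (0.49, 0.529 and 0.0342). Of Nodal and TGF-beta genes they were Lefty1 (0.28, 0.947 and 0.0423), Lefty2 (0.64, 0.676 and 0.014) and Tgfb1 (0.35, 0.0841 and 0.00724), where the Lefty genes encode Nodal inhibitors. Germline genes were Mael (-0.92, 0.401 and 0.00536) and Rhox6 (0.36, 0.33 and 0.0472), in opposite directions. The 2 immune list genes were Cd24a (0.75, 0.444 and 0.00206) and Cd81 (-0.21, 0.578 and 0.0228). Cell cycle genes were Ccne2 (0.27, 0.824 and 0.0422) and Cdkn2a (0.22, 0.159 and 0.032). Single members of other lists were Krt7 (-0.72, 0.642 and 0.0221), Nes (0.39, 0.123 and 0.0127), Tagln2 (0.23, 0.728 and 0.022), Bcl2l1 (-0.32, 0.104 and 0.01), Oas1a (-0.40, 0.39 and 0.0215) and Gsto1 (-0.45, 0.117 and 0.00798).

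Several called genes on no list were named after their values were seen. Zfp292, a large zinc finger protein, read 21.4, 21.9 and 23.2 FPKM in control and 9.804, 10.9 and 9.95 FPKM in Taz KO. Its libraries were tight within groups, and it fell by 1.08 ± 0.07 (SE; limma adjusted p = 0.000568), a call that held in 9 of 9 fits without 1 library, with a limma adjusted p of up to 0.00788 without Taz KO replicate 1. Mme (neprilysin), a membrane metallopeptidase, read 16.4, 20.5 and 21.2 FPKM in control and 8.71, 9.32 and 11.8 FPKM in Taz KO (-0.93 ± 0.17 SE, limma adjusted p = 0.0389, kept in 1 of 9 fits). Ddah1, which degrades the nitric oxide synthase inhibitor asymmetric dimethylarginine, read 14.9, 15.1 and 12.6 FPKM in control and 9.27, 7.76 and 8.21 FPKM in Taz KO (-0.72 ± 0.09 SE, limma adjusted p = 0.0121, kept in 6 of 9 fits). Cited2, a transcriptional coregulator that binds CBP and p300, read 12.8, 14.9 and 10.9 FPKM in control and 8.07, 7.95 and 7.05 FPKM in Taz KO (-0.70 ± 0.11 SE, limma adjusted p = 0.0245, kept in 2 of 9 fits). Klhl3, an adaptor of a ubiquitin ligase, read 3.17, 2.64 and 2.23 FPKM in control and 1.06, 1.07 and 1.03 FPKM in Taz KO (-1.02 ± 0.13 SE, limma adjusted p = 0.012, kept in 6 of 9 fits).

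Some of the calls lay side by side in the genome. Running windows of 10 neighbouring tested genes outside the 4 chromosomes gave a median log2 difference of at least 0.4 in size in 25 of 9824 windows, 16 on chromosome 4, 6 on chromosome 16 and 3 on chromosome 7. The chromosome 4 stretch was chosen from these values, so it is described without a test. On chromosome 4 (chr4:145446740-147812229, GRCm38), 28 tested genes from Gm13230 to Gm13157, mostly zinc finger genes and pseudogenes of one expanded family, had a median of -0.43. Of these 27 were below 0 and 11 fell, 19 with the block. The flanking 10 genes on either side had medians of 0.0067 and 0.0041. By library the median was -0.44, -0.48 and -0.48 in Taz KO and -0.05, -0.05 and 0.13 in control.

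Gm13230, a transcribed pseudogene, had the largest difference there and read 9.53, 13.03 and 13.3 FPKM in control and 3.26, 3.97 and 2.63 FPKM in Taz KO (-1.72 ± 0.16 SE, limma adjusted p = 0.00393, kept in 9 of 9 fits). Rex2, a zinc finger gene, read 7.94, 7.98 and 8.83 FPKM in control and 4.09, 4.38 and 3.403 FPKM in Taz KO (-0.98 ± 0.10 SE, limma adjusted p = 0.00523, kept in 9 of 9 fits), and Gm13154 read 37.8, 36.1 and 43.4 FPKM in control and 20.6, 18.1 and 14.9 FPKM in Taz KO (-1.11 ± 0.17 SE, limma adjusted p = 0.0191, kept in 5 of 9 fits). Many of these genes are closely related copies, so the reads of one may have been counted on another and single values are uncertain. Zfp951 on chromosome 5 and Zfp229 on chromosome 17, also zinc finger genes, were called as well: Zfp951 read 10.9, 9.65 and 13.9 FPKM in control and 6.01, 5.42 and 4.45 FPKM in Taz KO (-1.04 ± 0.16 SE, limma adjusted p = 0.0198, kept in 5 of 9 fits), and Zfp229 read 13.95, 15.4 and 12.4 FPKM in control and 7.2001, 7.28 and 6.26 FPKM in Taz KO (-0.96 ± 0.09 SE, limma adjusted p = 0.00468, kept in 9 of 9 fits).

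**Figure D3:**
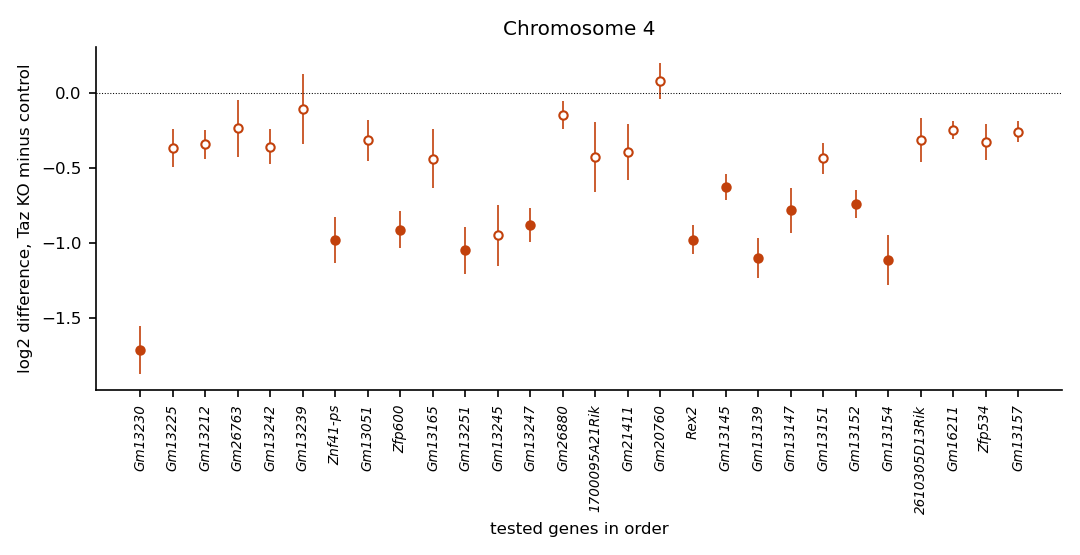
Log2 difference (Taz KO minus control) ± SE of each tested gene in order along the chromosome 4 stretch; filled points were called without the block. All but 1 of the 28 genes lie below 0.

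Among rises not yet described, Ppil2, a cyclophilin-like protein, read 13.6, 13.2 and 14.5 FPKM in control and 21.5, 18.7 and 20.6 FPKM in Taz KO (0.54 ± 0.08 SE, limma adjusted p = 0.0138, kept in 5 of 9 fits). Ppm1f, a protein phosphatase, read 13.9, 16.1 and 14.8 FPKM in control and 19.3, 20.8 and 20.8 FPKM in Taz KO (0.43 ± 0.07 SE, limma adjusted p = 0.0282, kept in 1 of 9 fits). In both genes every Taz KO library was above every control library. They lie in the windows on chromosome 16, a stretch of 10 tested genes of which 9 were above 0, with a median of 0.51, chosen from these values and given without a test. Of the 10, 3 were called higher without the block and 9 with it.

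Chromosomes 8, 6 and 14 were raised along their length in Taz KO. The median log2 difference was 0.351 over 671 tested genes of chromosome 8, 0.211 over 522 of chromosome 6 and 0.102 over 398 of chromosome 14, which as folds of medians are 1.28, 1.16 and 1.07. The other 17 nuclear chromosomes lay between -0.031 and 0.027. Of the genes of chromosome 8, 93.0% were above 0, of chromosome 6 86.0% and of chromosome 14 75.1%, against 40.9% to 57.9% on the others. These 3 chromosomes were picked out with the values known, so the shifts are given as descriptions.

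Each library showed the shift. Against the control mean, the median of chromosome 8 was 0.362, 0.274 and 0.431 in Taz KO libraries and -0.007, -0.111 and 0.118 in control libraries. For chromosome 6 it was 0.221, 0.117 and 0.313 against 0.002, -0.019 and 0.017, and for chromosome 14 0.140, 0.083 and 0.091 against -0.007, -0.026 and 0.043. The groups did not overlap on any of the 3, and an exact permutation test of 3 against 3 libraries cannot give a two-sided p below 0.1. Chromosome 8 held 4.60% to 5.32% of recovered reads in control and 6.11% to 6.34% in Taz KO. Medians of 10 consecutive parts of the gene order ran from 0.296 to 0.401 on chromosome 8, from 0.162 to 0.260 on chromosome 6 and from 0.059 to 0.167 on chromosome 14, so no part of them stayed at 0. Double KO libraries, against the same control libraries, had medians of 0.302, 0.194 and 0.107.

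**Figure D4:**
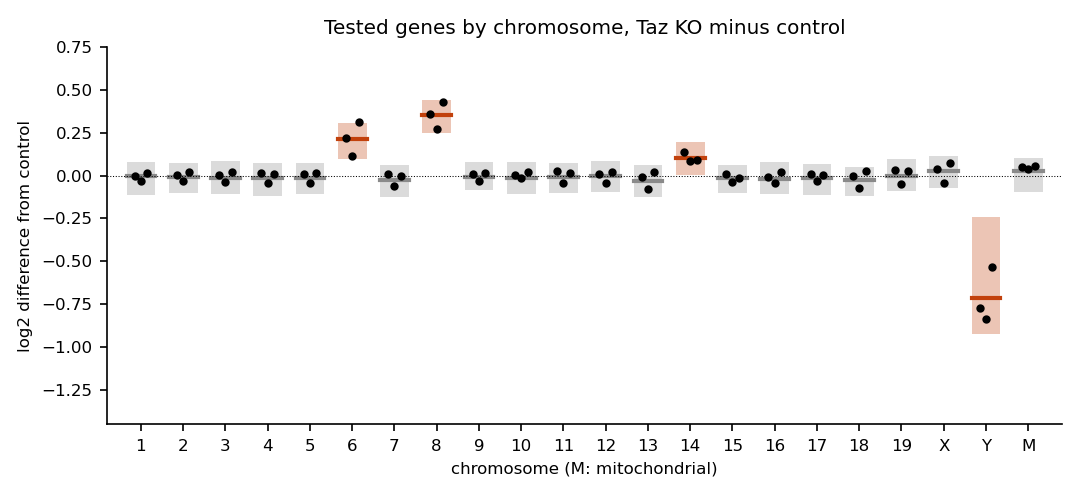
Median (line) and interquartile range (box) of the log2 difference between Taz KO and control over the tested genes of each chromosome; points are the medians of Taz KO replicates 1, 2 and 3 against the control mean. Chromosomes 8, 6 and 14 lie above 0 (0.351, 0.211 and 0.102), the 5 genes of chromosome Y lie below, and the others stay between -0.031 and 0.027.

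**Figure D5:**
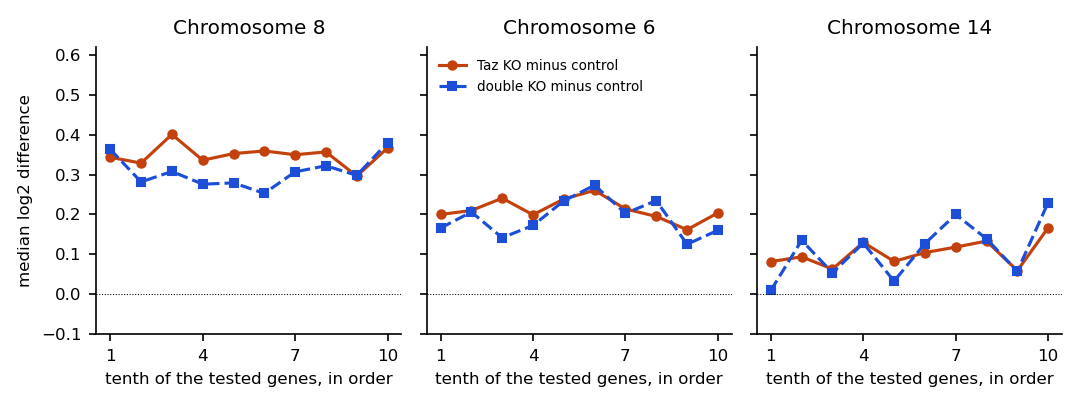
Median log2 difference from control in 10 consecutive parts of the tested genes of chromosomes 8, 6 and 14, for Taz KO and for double KO, which share the control libraries. Every part of the 3 chromosomes is above 0 in both.

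On these chromosomes and Y together, 66 of 1596 genes rose (4.14%) and 4 fell (0.251%). The block raised these counts to 634 (39.7%) and 28 (1.75%). The rises were 53 of 671 genes on chromosome 8 (7.9%), 11 of 522 on chromosome 6 (2.11%) and 2 of 398 on chromosome 14 (0.503%). In all, limma called at most 1 rise there without control replicate 1, control replicate 2 or Taz KO replicate 3, and between 23 and 101 without any other single library.

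On chromosome 8, single genes stood above the chromosome median. Cpe, a carboxypeptidase that processes neuropeptides, read 17.98, 19.1 and 20.9 FPKM in control and 32.3, 43.7 and 38.3 FPKM in Taz KO (0.95 ± 0.12 SE, limma adjusted p = 0.012, kept in 6 of 9 fits). Bst2 (tetherin), an interferon-induced membrane protein, read 89.3, 91.3 and 76.3 FPKM in control and 150.4, 140.2 and 151 FPKM in Taz KO (0.78 ± 0.09 SE, limma adjusted p = 0.00969, kept in 7 of 9 fits). The other interferon and MHC class I genes, outside the 4 chromosomes, had a median of -0.06, with 0 calls by limma without the block and by voom, 0 members at an unadjusted p under 0.05 and Oas1a lower with the block. Arrdc2, an arrestin-domain protein, read 10.3, 9.47 and 10.8 FPKM in control and 18.7, 15.5 and 17.1 FPKM in Taz KO (0.71 ± 0.10 SE, limma adjusted p = 0.0161, kept in 5 of 9 fits). Cmtm3 (0.70 ± 0.11 SE, limma adjusted p = 0.0202, kept in 5 of 9 fits), Insl3 (0.66 ± 0.10 SE, limma adjusted p = 0.0191, kept in 5 of 9 fits) and the amino acid transporter gene Slc7a6 (0.63 ± 0.12 SE, limma adjusted p = 0.0428, kept in 2 of 9 fits) were the next largest rises. Itgb1, the integrin beta-1 chain that binds fibronectin, read 39.97, 37.6 and 47.7 FPKM in control and 62.5, 57.6 and 69.01 FPKM in Taz KO (0.59 ± 0.11 SE, limma adjusted p = 0.0434, kept in 2 of 9 fits).

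On chromosome 6 the largest rises were Tmem150a (0.80 ± 0.12 SE, limma adjusted p = 0.0198, kept in 4 of 9 fits), the Eph receptor gene Epha1 (0.77 ± 0.12 SE, limma adjusted p = 0.0229, kept in 3 of 9 fits) and the semaphorin gene Sema4f (0.59 ± 0.10 SE, limma adjusted p = 0.0339, kept in 2 of 9 fits). On chromosome 14 Phf11d read 8.99, 8.61 and 9.75 FPKM in control and 15.9, 14.6 and 17.2 FPKM in Taz KO (0.77 ± 0.09 SE, limma adjusted p = 0.0111, kept in 6 of 9 fits) and R3hcc1 11.8, 11.3 and 12.5 FPKM in control and 16.9, 14.8 and 16.9 FPKM in Taz KO (0.43 ± 0.08 SE, limma adjusted p = 0.0339, kept in 2 of 9 fits).

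Chromosome Y genes did not all differ alike. Of its 5 tested genes 3 fell. Ddx3y, an RNA helicase, read 9.92, 9.65 and 11.3 FPKM in control and 3.79, 4.198 and 3.74 FPKM in Taz KO (-1.29 ± 0.09 SE, limma adjusted p = 0.000568), and the call held in 9 of 9 fits without 1 library, with a limma adjusted p of up to 0.00788 without Taz KO replicate 1. Uty, a histone demethylase paralog, read 3.404, 3.31 and 3.63 FPKM in control and 1.46, 1.63 and 1.65 FPKM in Taz KO (-0.92 ± 0.09 SE, limma adjusted p = 0.00552, kept in 8 of 9 fits), and Eif2s3y, a translation initiation factor subunit, read 10.2, 8.73 and 10.7 FPKM in control and 5.54, 5.28 and 6.63 FPKM in Taz KO (-0.71 ± 0.13 SE, limma adjusted p = 0.037, kept in 2 of 9 fits). Kdm5d read 1.07, 0.957 and 1.35 FPKM in control and 0.963, 1.12 and 0.726 FPKM in Taz KO (-0.18 ± 0.18 SE, limma adjusted p = 0.832), and Uba1y read 2.84, 2.92 and 2.39 FPKM in control and 2.39, 2.59 and 1.74 FPKM in Taz KO (-0.24 ± 0.15 SE, limma adjusted p = 0.627), and in both genes the groups overlapped. A lower level in every cell and a share of cells without the transcript cannot be told apart in bulk libraries.

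Of the 80 genes called outside these chromosomes, 24 lay further from control in double KO than in Taz KO by limma (19 falls and 5 rises), 6 lay back towards control and 50 did not pass that test. Both comparisons use the Taz KO libraries, so they are given side by side only. The share of all genes outside that pass the second comparison was not counted, so these counts have no background beside them. Mme read 0.692, 1.27 and 0.902 FPKM in double KO and Cth 9.74, 8.95 and 10.5 FPKM, both far below their Taz KO values given above. Cldn3 read 14.9, 13.03 and 15.02 FPKM and S100a14 6.598, 4.91 and 6.37 FPKM, above Taz KO. Among the 6 that lay back towards control were Cd80 (4.66, 2.72 and 4.38 FPKM), Slc25a48, Klhl3, Zfp292 and Stag3. Zfp292 read 12.8, 12.1 and 13.2 FPKM in double KO and stayed below control (log2 difference -0.78, limma adjusted p = 0.000295). Klhl3 (-0.42, limma adjusted p = 0.0448) and Stag3 (0.32, limma adjusted p = 0.0117) also still differed from control in double KO. Cd80 (limma adjusted p = 0.247) and Slc25a48 (limma adjusted p = 0.792) did not pass that test. Slc25a48, a mitochondrial carrier, read 2.45, 2.39 and 2.41 FPKM in control and 1.303, 1.08 and 0.887 FPKM in Taz KO (-0.88 ± 0.12 SE, limma adjusted p = 0.0146, kept in 5 of 9 fits), and 2.36, 2.44 and 2.78 FPKM in double KO. Ctgf at 3.203, 2.82 and 3.599 FPKM did not pass the test against Taz KO, while Cyr61 at 0.384, 0.247 and 0.402 FPKM lay further from control.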

How the data were processed

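The 9 libraries of poly(A)-selected RNA were grouped by the sample titles. The values are FPKM, as the authors deposited them, with 1 column a library. TopHat2 2.1.1, HTSeq 0.6.1, DESeq2 and the mm10 build are named in the submitters' processing notes, without their roles. Which annotation release and strand setting were used is not given in the sources used here, so reads of overlapping, antisense or near-identical genes may be split between them.

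Divided by what 1 read is worth, the deposited FPKM values came out whole for 100% of the 24621 genes above 0 (tolerance 0.001). This gave 19139802 to 23992020 recovered reads per library and showed that the columns already shared a median-of-ratios scale. For each gene the fewest reads that gave whole numbers were taken. A gene above 0 in only 1 library therefore came out whole in any case. Read numbers with a common factor come out too low. Values were taken as log2(FPKM + 0.5), which understates the fold change of low genes, and limma 3.58.1 in R 4.3.3 was fitted to group means over the 9 libraries (6 residual degrees of freedom, variance trend in the mean) for the 11674 genes whose mean reached 1 FPKM. Voom on the recovered reads, an alternative added after seeing the data, called 21 rises and 71 falls outside the 4 chromosomes. Tests were two-sided, with Benjamini-Hochberg adjustment over all 11674 genes. The code was tested on simulated data.

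Libraries that carry the same number deviated together from their group means: the correlation was 0.192 to 0.711 in all 9 such pairs and -0.688 to 0.394 in the other 18 pairs. The numbers were therefore taken to pair the libraries, from these values and not from the labels, and the fit with the number as a block is printed beside each list member outside the 4 chromosomes whose call it changes, and as counts for other genes. No 2 replicates agreed within sampling noise (chi-square per gene 5.04 to 39.6).

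Named genes were the 15 largest called falls and rises outside chromosomes 6, 8, 14 and Y, the largest called genes of those chromosomes, Wwtr1, Yap1, called list members and up to 4 of the most highly expressed members of a list. Genes known only by a model number could be left out, and 1 called gene is not reported here. Members called only with the block, and the called genes said to be on no list, were named after their values were seen. The genes, lists and chromosomes were chosen with earlier results of these data known, so no list is independent evidence. Positions are from GENCODE M21 or RefSeq (both GRCm38), and promoter sequences from RefSeq GRCm38.p6. Alternatives covered the pseudocount, the filter, the scaling, the libraries in the fit and the test.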

Additional observations from a re-analysis of the deposited data

How the results depend on the processing

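No called value reversed under the alternatives run, but the medians of 6 of 34 lists turned from below to above 0 when members on chromosomes 6, 8, 14 and Y were counted too: 0.0058 for the Hippo list, 0.034 for naive and 0.019 for formative pluripotency, 0.033 for BMP and Id genes, 0.012 for apoptosis regulators and 0.053 for FGF/ERK targets. Pairing the libraries by number (the replicate block) called 274 genes higher and 445 lower outside chromosomes 6, 8, 14 and Y and 634 and 28 on them. It kept all 55 called genes that were named by the rule, and it lost none of the 80 calls outside. List members outside that it added to the calls are printed in the report, and other genes it added are given as counts. The block with only the 6 control and Taz KO libraries (added after seeing the data) gave 202 and 453 outside and 549 and 32 on them. The 6 libraries without the block gave 10 rises outside and 25 on those chromosomes. Leaving out all libraries numbered 2 (also added) gave 61 and 134 outside, and 222 rises on them. Leaving out 1 library in turn, without the block, gave 1 to 29 rises and 9 to 96 falls outside. On those chromosomes it gave 0 to 101 rises and 1 to 5 falls, and 7 of the 55 named calls held in all 9 such fits. Quantile normalization and scaling to the same FPKM sum gave 105 and 123 rises on those chromosomes. Without the filter on low values the medians of chromosomes 6, 8, 14 and Y were 0.044, 0.221, 0.022 and -0.130, and with a mean of at least 5 FPKM that of Y was -1.002. Voom on the recovered reads (added) kept 51 of the 55 named calls. The planned edgeR and DESeq2 fits were not run, because the deposited unit is FPKM. With 3 libraries a group, genes of few reads, such as Tex13 and S100a14, are limited by depth.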
